A study of Mus musculus with 22 samples.

Results

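Cdkn1a, which encodes the cyclin-dependent kinase inhibitor p21, and 9 further genes of the p53 pathway were followed in esophageal epithelial cells of control mice, of mice with an induced eosinophilic inflammation of the esophagus (EoE) and of mice with carcinogen-induced squamous cell carcinoma (ESCC). The genes were chosen by name, as Cdkn1a, Trp53, Mdm2, Ccng1, Phlda3, Bax, Trp53inp1, Sesn2, Aen and Zmat3, and all 10 are among the 17541 genes listed in the count tables. All mice were of the strain C57BL6, and epithelium peeled from the muscle was profiled by inDrop, a droplet method that tags each captured transcript with a unique molecular identifier (UMI). The 6 controls were untreated, 3 of them young (3 to 4 months) and 3 old (18 to 20 months). In 4 mice EoE was induced over 32 days with MC903, a vitamin D analog put on the ears, and ovalbumin (OVA), and 2 of these mice were aged 6 to 8 weeks and 2 were aged 19 to 20 months. In 3 mice aged 8 to 10 months (named 8M, 17F and 17M by their labels) ESCC was induced with the carcinogen 4NQO, given in drinking water for 16 weeks and then withdrawn for 8 weeks. There were 2 libraries per control or ESCC mouse and 1 per EoE mouse, and the mouse was the replicate. Group sizes follow the sample labels.

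The transcription factor p53, the product of Trp53, is held at low levels in unstressed cells by the ubiquitin ligase Mdm2 and builds up after DNA damage or other stress. It then raises the transcription of genes that stop the cell cycle, repair DNA, trigger apoptosis or feed back on p53 itself. Cdkn1a is the best known of these targets, but it is also switched on without p53 when epithelial cells leave the cell cycle and differentiate, so its level alone does not report p53 activity. In stratified esophageal epithelium, cells divide in the basal layer, where keratin 5 (Krt5) is high, and differentiate as they move toward the lumen, where Krtdap and cornified envelope genes are high. The agent 4NQO forms adducts on DNA.

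In build GRCm38 (GENCODE annotation) the 10 genes lie apart: Cdkn1a at chr17:29090976-29100727, Trp53 at chr11:69580359-69591873, Mdm2 at chr10:117688875-117710758, Ccng1 at chr11:40748552-40755311, Phlda3 at chr1:135766119-135769136, Bax at chr7:45461697-45466898, Trp53inp1 at chr4:11156431-11174379, Sesn2 at chr4:132492032-132510501, Aen at chr7:78895854-78911209 and Zmat3 at chr3:32334792-32366014. A gene on the opposite strand overlaps Cdkn1a and genes on the same strand overlap Bax (Gm45808) and Sesn2 (Gm12981). The count tables list none of these, and the strand setting of the counting is not given in the sources used here, so their reads cannot be told apart from those of the 3 members. Of the 10 genes, 8 have an entry in the RefSeq promoter table (GRCm38.p6, from 250 bases before to 50 bases after the gene's start), and 6 of these 8 hold at least 1 match to the p53 half-site, a symmetrical motif of 10 bases that reads the same on both strands. Over all genes in that table the share was 9.55% (2582 of 27025 genes). The matches are shown because they are the letters through which p53 is known to read a target, and the capitals mark the half-site. Positions count from the gene's start, with negative values upstream. Cdkn1a held a pair of matches that begin at -73 and -51 (chr17:29090898-29090923 and chr17:29090920-29090945, plus strand). Further matches began at -75 in Trp53 (chr11:69580276-69580301, plus strand), at -186 in Mdm2 (chr10:117710927-117710952, minus strand), at -185 in Ccng1 (chr11:40755454-40755479, minus strand), at -201 in Bax (chr7:45467082-45467107, minus strand) and at -121 from 1 of the starts of Aen (chr7:78895929-78895954, plus strand).
Cdkn1a, first match: ctgggtggGGACTAGCTTtctggcct
Cdkn1a, second match: gccttcagGAACATGTCTtgacatgt
Trp53: ccacggaaGGACTTGCCCttacttgt
Mdm2: tcggatagGAACTTGCCTagcgacca
Ccng1: acctgcccGGGCAAGCCTtggcactg
Bax: catatcccAGGCAAGCTTtgaacttg
Aen: ccgaagccGGGCTTGTCCgggcaagg
The promoters of Phlda3 and Sesn2 held no match, which says only that these letters are not in that window. A match is a description of the sequence, and binding was not measured.

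Depth differed with condition. The main results rest on 1493 control cells with a median of 990 UMIs per cell, 143 EoE cells with a median of 519 and 1472 ESCC cells with a median of 3109, after the limits on genes and UMIs per cell and without 7 control, 1 EoE and 22 ESCC cells that carried markers of other cell types. The EoE cells used were 9.53% of the 1500 deposited, and mouse 11 kept 11 of them. Each control mouse contributed 111043 to 427752 UMIs, each EoE mouse 6245 to 41909 and each ESCC mouse 1240388 to 2103543. The paired libraries of a mouse shared 4 to 52 cell barcodes (239 in all over 9 mice), while libraries of different mice shared at most 4. The labels name no batch, and an effect of batch cannot be told apart from one of condition. In the cells used, summed immune markers stood at 0.927 to 1.15 per 10000 UMIs in ESCC mice, at 0 to 0.295 in controls and at 0 in EoE mice, with 11 of 11 listed markers seen in ESCC cells, 3 in control cells and none in EoE cells. Endothelial markers stood at 0.716 to 2.78 per 10000 UMIs in EoE mice, all from 1 of 6 listed genes (Cdh5, Kdr, Cldn5, Egfl7 and Emcn were at 0), and at no more than 0.0994 in the others. Summed fibroblast markers stood at 0.596 to 3.69 in controls (4 of 6 genes seen), at 0 to 1.88 in EoE (4 of 6) and at 0.133 to 1.19 in ESCC (6 of 6), and muscle markers at no more than 0.366 in any mouse. All 5 listed eosinophil and mast cell markers were at 0 in every group. The part of these cells in the results was not tested.

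The first comparison asked whether Cdkn1a and the other genes differed together between ESCC and control epithelium. Ccng1, Phlda3 and Trp53inp1 were higher in ESCC, and Cdkn1a was not called. Levels are given as counts per 1000000 UMIs (CPM) with edgeR's TMM scaling, and a gene was called at an adjusted p under 0.05 in edgeR's quasi-likelihood test with Benjamini-Hochberg adjustment over all genes tested. Cdkn1a stood at 605 to 959.8 CPM in the 6 controls (median 797) and at 553 (17F), 701 (17M) and 966 (8M) CPM in the ESCC mice. The groups overlapped, and the log2 fold change was -0.07 ± 0.22 (SE; edgeR adjusted p = 0.83).

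**Figure D1:**
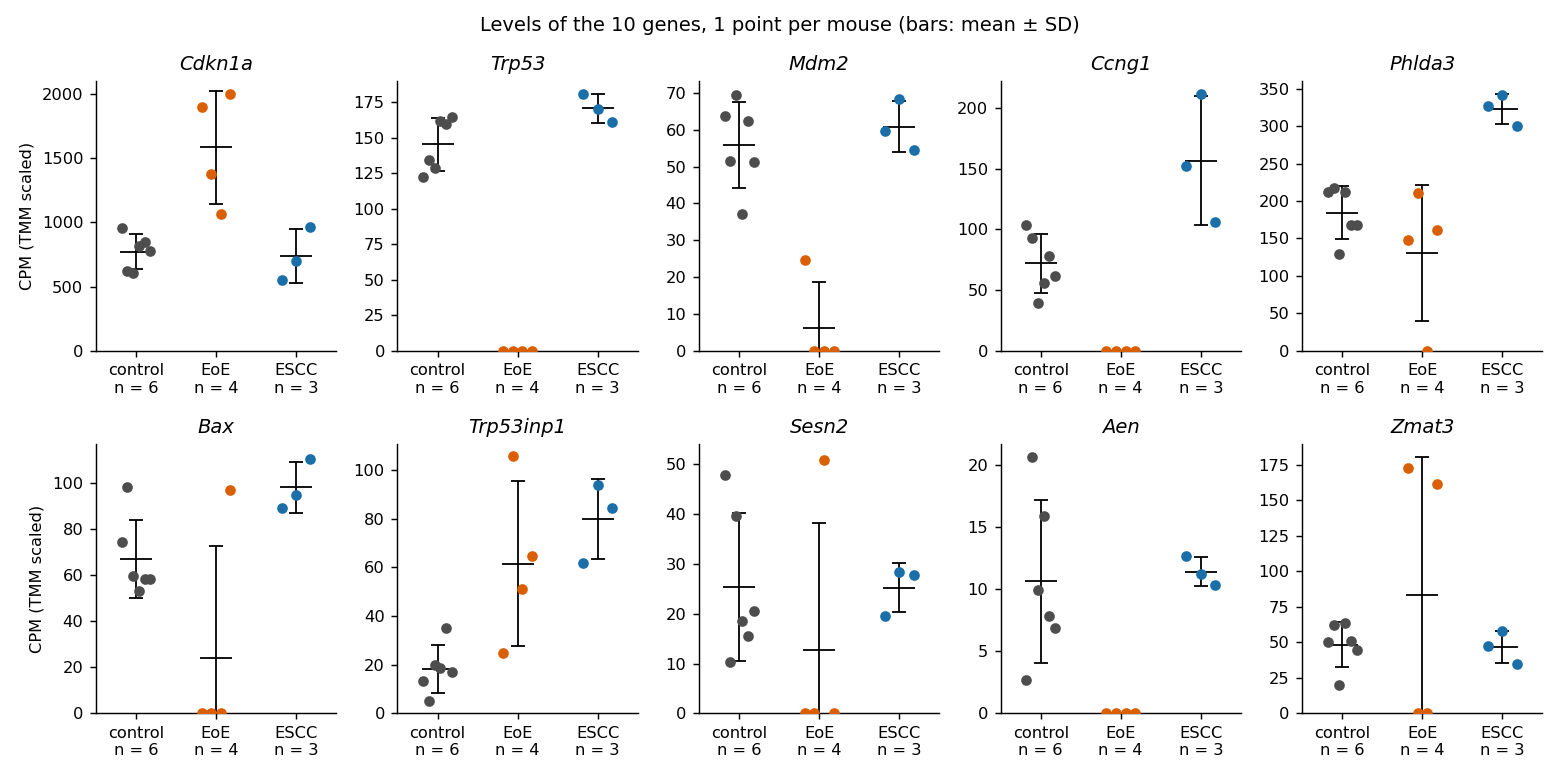
CPM (TMM scaled) of each of the 10 genes in the epithelial cells of each mouse, with 6 control, 4 EoE and 3 ESCC mice on the horizontal axis and the mean ± SD as bars. Phlda3 and Trp53inp1 in the ESCC mice lie above every control mouse, Cdkn1a does not, and Trp53, Ccng1 and Aen are at 0 in all 4 EoE mice.

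Of the targets that feed back on growth signals and on p53, Ccng1 (cyclin G1, which binds a phosphatase that acts on Mdm2) and Phlda3 (an inhibitor of Akt) were both higher in ESCC. Ccng1 ranged from 39.7 to 103.7 CPM in controls (median 69.8) and stood at 106 (8M), 152 (17F) and 212 (17M) CPM in ESCC mice. Every ESCC mouse lay above every control, mouse 8M by little, and the log2 fold change was 1.08 ± 0.24 (edgeR adjusted p = 0.00073). Phlda3 ranged from 129 to 217 CPM in controls (median 189.8) and stood at 301 (8M), 327 (17F) and 341 (17M) CPM in ESCC mice, again without overlap, with a log2 fold change of 0.78 ± 0.19 (edgeR adjusted p = 0.0016).

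Of the genes tied to cell death, Trp53inp1, a stress protein of apoptosis and autophagy, differed most. It stood at 5.16 to 35.1 CPM in controls (median 17.8) and at 61.7 (17F), 84.5 (8M) and 93.7 (17M) CPM in ESCC mice. The groups did not overlap and the log2 fold change was 2.12 ± 0.29 (edgeR adjusted p = 9.8e-07), although the control values rest on 29 UMIs in all, against 329 in ESCC. With so few control UMIs the gene could pass edgeR's filter on low counts through the other mice alone, and its call carries that limit. Bax, which opens the outer mitochondrial membrane, stood at 52.9 to 98.1 CPM in controls (median 59.0) and at 89.0 (17F), 94.9 (17M) and 110.3 (8M) CPM in ESCC mice. Control mouse 2 lay among the ESCC mice, and with a log2 fold change of 0.56 ± 0.23 the gene missed the threshold (edgeR adjusted p = 0.056). Its call depended on the setting, since it passed in 5 of the alternatives that kept all mice and without control mouse 2. Bax also shares 15.8% of the 31-base sequences at its transcript end with Gm45808, so its counts are uncertain. Aen, a nuclease of apoptosis, had 16 UMIs in controls and 47 in ESCC and did not pass edgeR's filter on low counts.

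Trp53 itself and its ligase missed the threshold. Trp53 stood at 122 to 164 CPM in controls (median 147) and at 161 (8M), 170.3 (17M) and 181 (17F) CPM in ESCC mice, with a log2 fold change of 0.22 ± 0.18 (edgeR adjusted p = 0.362). Mdm2 stood at 37.1 to 69.5 CPM in controls (median 57.0) and at 54.6 (8M), 59.6 (17F) and 68.4 (17M) CPM in ESCC mice, inside the control range, with a log2 fold change of 0.17 ± 0.23 (edgeR adjusted p = 0.592). For Sesn2, a stress-induced inhibitor of mTORC1, the log2 fold change was -0.01 ± 0.36, and for Zmat3, an RNA-binding zinc finger protein, it was -0.11 ± 0.27, and both groups overlapped for each gene. In all, 3 of the 9 members that passed the filter were higher and 0 lower, beside 34.6% of all 5866 genes called in either direction, and the median log2 fold change was 0.22 over the 9 members and 0.01 over all genes tested.

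The wider pathway was described by lists written for this work. Of 40 other p53 targets, 21 were tested, 10 were higher and 2 lower in ESCC, with a median log2 fold change of 0.61. The largest increases were those of Pmaip1, which encodes the death protein Noxa (log2 fold change 2.23 ± 0.44), Ak1, an adenylate kinase (2.01 ± 0.37), and Sfn, which encodes the cell cycle brake 14-3-3 sigma (2.00 ± 0.23). Sfn stood at 531 to 794 CPM in controls and at 2320.3 to 2769 CPM in ESCC mice. The control levels of Pmaip1 and Ak1 rest on 17 and 22 UMIs and their EoE levels on 1 and 0. Both thus passed the filter through ESCC, the group where they are high, and their calls carry that limit. The largest decreases were those of Btg2, an antiproliferative gene (-1.52 ± 0.25), Triap1, which encodes an inhibitor of apoptosis (-1.27 ± 0.20), and, from the list of regulators, Trp53bp2, which encodes the p53 partner ASPP2 (-1.21 ± 0.29). Of 18 p53 regulators and relatives, 12 were tested, 1 was higher and 3 were lower (median -0.11). Of 28 cell cycle genes that p53 and p21 are known to repress, 22 were tested, 8 were higher and 1 was lower (median 0.29). The 8 that were higher included the replication genes Mcm2 to Mcm6, and the 1 that was lower was Prc1, a gene of cytokinesis (-1.06). Over all genes tested 34.6% were called in either direction, a share near those of the regulators and the cell cycle genes.

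The next comparison asked how the members differed between classes of epithelial cells, from the dividing to the differentiating. Cdkn1a rose with differentiation in both control and ESCC mice. Cells were classed from clusters of control cells, made without the members and the list genes, by whether Krt5 or Krtdap dominated: basal, suprabasal for the strip in which neither did, and above the strip where Krtdap did. ESCC and EoE cells took the class of their nearest control cells. In controls Cdkn1a rose from a median of 119 CPM in basal cells (85.9 to 178) through 739 CPM in suprabasal cells (404 to 877) to 1626 CPM above the strip (1387 to 1867). The level above the strip was 9.69 to 16.4 times the basal level within each of the 6 control mice, and no basal value came near a value above the strip (log2 fold change 3.57 ± 0.15, edgeR adjusted p = 2.9e-42, mouse as a block).

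In ESCC mice the same order held, with a smaller step. The basal levels were 337 (17F), 459.5 (17M) and 597 (8M) CPM, the suprabasal levels 859.6, 911 and 1028 CPM, and the levels above the strip 1191, 1302 and 1960.0 CPM, for the mice in the same order. Cells above the strip held 3.54, 2.83 and 3.28 times the basal level, below the ratio of every control mouse (log2 fold change 1.68 ± 0.14, edgeR adjusted p = 1.9e-20). The difference between the steps of ESCC and control was tested as an interaction and amounted to -1.89 ± 0.21 on the log2 scale (edgeR adjusted p = 1.8e-11), in a test that called 3.78% of all genes. Classing each cell by its own Krt5 and Krtdap UMIs instead gave -1.16 ± 0.23 (edgeR adjusted p = 0.00016). ESCC cells above the strip held more Krt5 (22.8 to 80.3 per 10000 UMIs, against 5.17 to 13.03 in controls) and fewer suprabasal markers (266 to 531, against 748 to 1035), so the class did not hold the same cells in both groups.

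**Figure D2:**
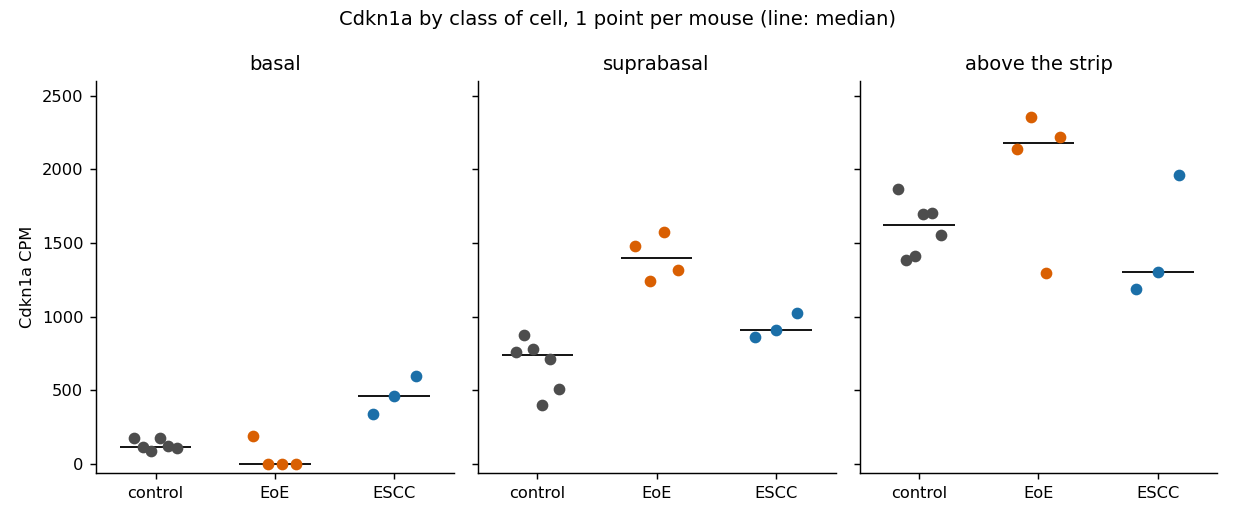
CPM of Cdkn1a in each mouse (1 point, with the group's median as a line) for basal cells, suprabasal cells and cells above the strip, with TMM scaling for control and ESCC and scaling to total UMIs for EoE. The 3 ESCC mice lie above all 6 controls in the basal panel (337 to 597 against 85.9 to 178 CPM) and among them above the strip (1191 to 1960.0 against 1387 to 1867 CPM). The EoE basal points rest on 1 to 14 cells per mouse and 1 Cdkn1a UMI in all. There 3 UMIs over the group correspond to 319 CPM, so these points do not show that the gene is absent.

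Among the other members, Zmat3 also rose with differentiation and Trp53 fell. Zmat3 went from 0 to 29.2 CPM in basal cells of controls (median 16.4) to 32.8 to 158.0 CPM above the strip (median 85.7), again without overlap, a log2 fold change of 2.46 ± 0.44 (edgeR adjusted p = 9.6e-07). In ESCC the change of Zmat3 was 1.03 ± 0.34 (edgeR adjusted p = 0.011), and it missed the threshold without mouse 17M (0.91) or mouse 8M (0.78). Trp53 went from 157 to 251 CPM in basal cells of controls (median 197) to 32.8 to 103.2 CPM above the strip (median 80.8), a log2 fold change of -1.51 ± 0.25 (edgeR adjusted p = 2.1e-07). In ESCC the change of Trp53 was -0.89 ± 0.22 (edgeR adjusted p = 0.00059). Mdm2, Ccng1, Phlda3, Bax and Trp53inp1 missed the threshold in both groups, with log2 fold changes between -0.47 and 0.67 in controls and between -0.75 and 0.13 in ESCC, and Sesn2 and Aen were not tested. Trp53inp1 (-0.75 ± 0.32 in ESCC) passed there with RLE size factors (-0.85) and without mouse 17F (-1.22), and it could not be tested without either of the other ESCC mice. Thus 2 of 8 members tested rose and 1 fell in each group, beside 45.1% of all genes called in controls and 36.8% in ESCC, and no member but Cdkn1a passed the interaction test (Zmat3 -1.43 ± 0.57, edgeR adjusted p = 0.167).

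In the lists, 21 of 21 cell cycle genes tested fell above the strip in controls (median -3.94) and 21 of 21 in ESCC (median -2.72), with Cdk1 (-6.70 ± 0.55), Mcm3 (-5.13 ± 0.75) and Aurkb (-5.01 ± 0.53) in front in controls and Plk1 (-4.02 ± 0.46), Prc1 (-3.79 ± 0.58) and Aurkb (-3.63 ± 0.54) in ESCC. The steps of Cdk1 (3.47 ± 1.02) and Top2a (1.56 ± 0.46) were smaller in size in ESCC by the interaction test (edgeR adjusted p = 0.033 for both). Of the 17 other targets tested, 4 rose and 3 fell in controls and 3 rose and 6 fell in ESCC. Perp, a desmosome and cell death gene, rose by 1.80 ± 0.11 in controls and 1.79 ± 0.13 in ESCC, and Sfn by 1.77 ± 0.14 and 1.64 ± 0.13, and Ei24, a gene of the endoplasmic reticulum, by 1.16 ± 0.36 in controls. Of the 10 regulators tested, 3 rose and 2 fell in controls and 1 rose (Ppp1r13l, which encodes the p53 inhibitor iASPP, 0.64 ± 0.20) and 3 fell in ESCC. Over all genes tested 45.1% were called in controls and 36.8% in ESCC. The counts of the regulators lay near these shares, as did that of the other targets in controls.

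**Figure D3:**
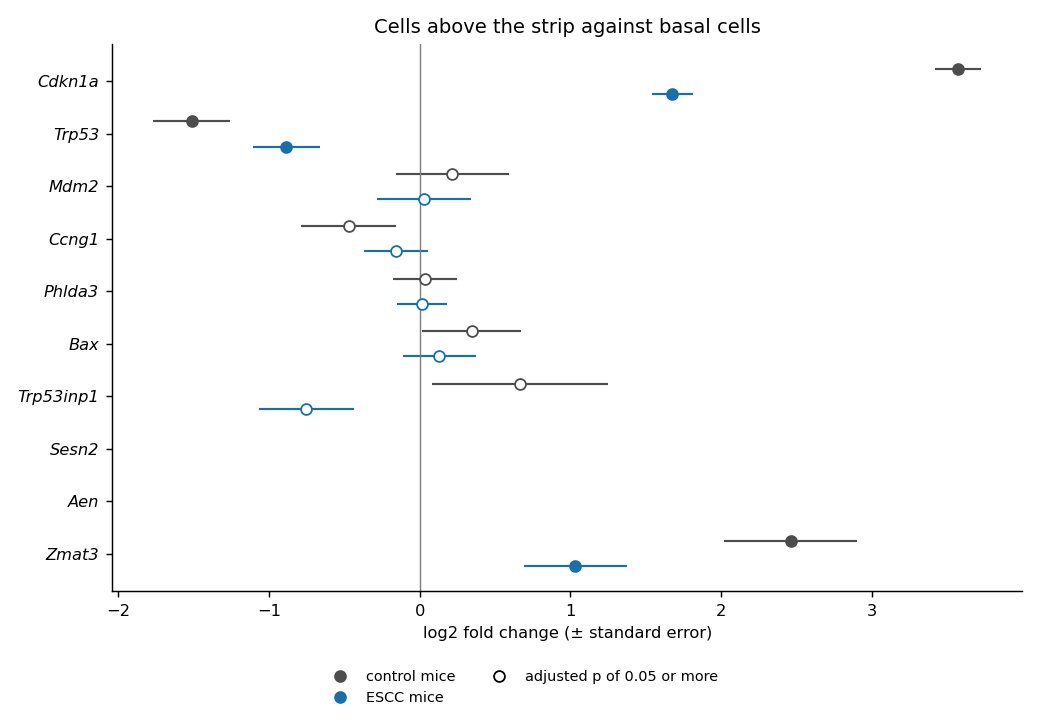
Log2 fold change (± SE) between cells above the strip and basal cells for each member, for 6 control and 3 ESCC mice, with open circles where the adjusted p was 0.05 or more and no point where the gene was not tested. Cdkn1a is the highest point in both groups (3.57 in control, 1.68 in ESCC) and Trp53 the lowest (-1.51 and -0.89).

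Within basal cells Cdkn1a was higher in ESCC together with some of the other targets. Its basal level in each ESCC mouse was above that of each control, as given above, with a log2 fold change of 1.78 ± 0.22 (edgeR adjusted p = 1.5e-06, 1.27 ± 0.18 with cells classed by their own Krt5 and Krtdap UMIs). Phlda3 stood at 100.3 to 217 CPM in basal cells of controls (median 177) and at 299.0 (17F), 306 (8M) and 321 (17M) CPM in ESCC mice, without overlap, a log2 fold change of 0.91 ± 0.20 (edgeR adjusted p = 0.0014). Ccng1 stood at 43.0 to 129 CPM in controls (median 79.3) and at 109 to 203 CPM in ESCC, with overlap, and a log2 fold change of 0.89 ± 0.27 (edgeR adjusted p = 0.016) that missed the threshold without ESCC mouse 17M (0.64) or control mouse 4 (0.69). Bax was higher by 0.67 ± 0.25 (edgeR adjusted p = 0.049), a call lost in 4 of the other settings that kept all mice and without any of 8 of the 9 mice. Trp53 did not pass (-0.14 ± 0.19). Trp53inp1 did not pass the filter in basal cells, where it had 12 UMIs in controls (0 to 33.2 CPM) and 240 in ESCC (60.8 to 108 CPM). Of the 5 members tested in basal cells 4 were higher, beside 30.9% of all genes called, with a median log2 fold change of 0.89 against -0.01 over all genes. With every gene of at least 1 UMI tested there, 4 of 10 members passed. Mdm2, Sesn2, Aen and Zmat3 did not pass the filter there. Their pooled basal levels were 51.8, 27.2, 9.07 and 16.8 CPM in controls and 60.7, 26.6, 10.7 and 34.5 CPM in ESCC.

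Above the strip Ccng1 and Phlda3 were again higher in ESCC and Cdkn1a was not. Cdkn1a stood at 1387 to 1867 CPM in controls and at 1191, 1302 and 1960.0 CPM in ESCC mice, with a log2 fold change of -0.11 ± 0.20 (edgeR adjusted p = 0.730). Ccng1 was higher by 1.21 ± 0.36 and Phlda3 by 0.89 ± 0.24 (edgeR adjusted p = 0.015 and 0.0077), and both calls were lost without ESCC mouse 17M (0.56 and 0.71). Thus 2 of 7 members tested were higher, beside 27.6% of all genes called. In suprabasal cells the filter left Cdkn1a (0.40 ± 0.24) and Phlda3 (0.21 ± 0.25), of which 0 passed in edgeR or in DESeq2 and 0 had an unadjusted p under 0.05, beside 33.8% of all genes called. With every gene of at least 1 UMI tested there, Ccng1 (1.55 ± 0.44) and Trp53inp1 (3.92 ± 0.89, from 1 UMI in controls) passed. Basal cells made up 66.9 to 73.1% of the epithelial cells of ESCC mice and 42.8 to 68.6% of those of controls, and cells above the strip 13.5 to 18.4% and 20.0 to 41.6%.

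**Figure D4:**
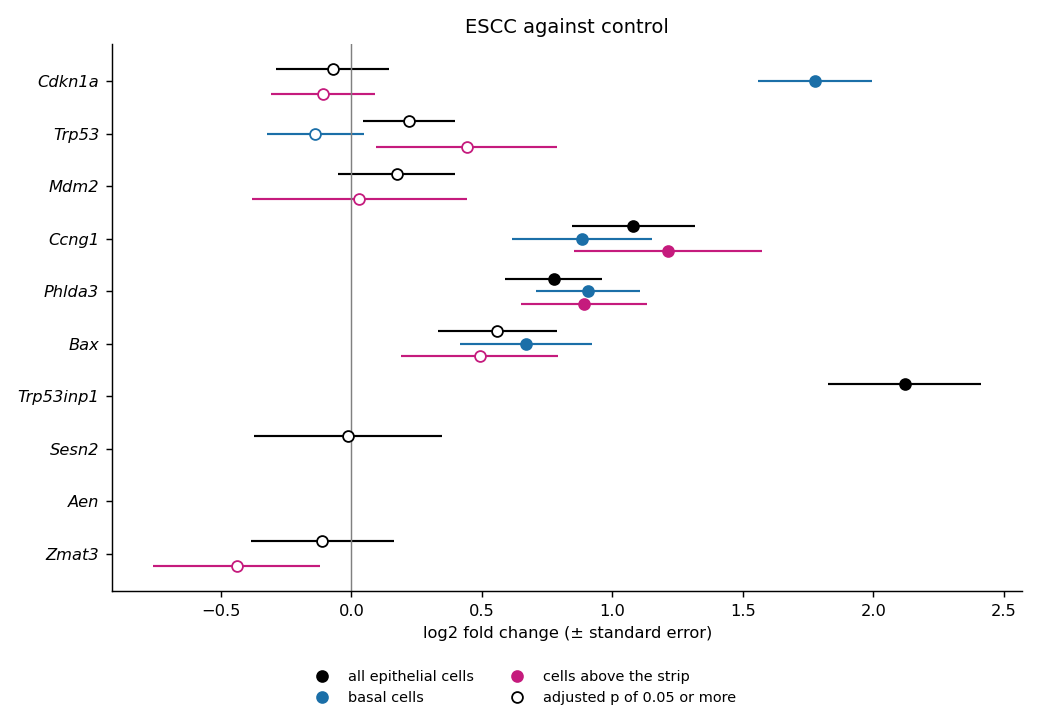
Log2 fold change (± SE) of each member in ESCC against control for all epithelial cells, basal cells and cells above the strip, with open circles where the adjusted p was 0.05 or more and no point where the gene was not tested. Ccng1 and Phlda3 lie between 0.78 and 1.21 in all 3 sets of cells, while Cdkn1a lies at 1.78 in basal cells, at -0.07 in all cells and at -0.11 above the strip.

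The wider lists were mixed in basal cells. Of the 16 other targets tested there, 5 were higher and 2 lower (median 0.14), with Sfn at 2.47 ± 0.18, Ptp4a3, a phosphatase, at 1.58 ± 0.32 and Dcxr, a xylulose reductase, at 1.42 ± 0.42, and with Btg2 at -1.48 ± 0.23 and Triap1 at -1.18 ± 0.24. Over all classes Ptp4a3 and Dcxr had 41 and 40 UMIs in controls, so they could pass the filter through ESCC alone. Of the 22 cell cycle genes tested, 5 were higher and 7 lower (median -0.21). The higher ones were the replication genes Mcm4, Mcm5, Mcm6 and Rrm2 together with Birc5, and the lower ones, Prc1 (-1.53 ± 0.26), Bub1b, Nusap1, Aurkb, Cdc20, Cenpa and Kif23, act in mitosis and cytokinesis. Of the 9 regulators tested 0 passed in edgeR and 0 had an unadjusted p under 0.05. In suprabasal cells 1 of 5 other targets tested was higher (Sfn, 2.16 ± 0.20) and 3 were lower (Btg2, Triap1 and Notch1). Above the strip 2 of 11 were higher (Sfn, 2.32 ± 0.20, and Ephx1, an epoxide hydrolase, 1.15 ± 0.32) and 2 lower (Btg2 and Triap1), and 2 of 7 regulators were lower, among them Rchy1, a ubiquitin ligase of p53 (-0.98 ± 0.30). Sfn, Btg2 and Triap1 passed in the same direction in all 3 classes. Over all genes tested 30.9% were called in basal cells, 33.8% in suprabasal cells and 27.6% above the strip. The 2 of 7 regulators called above the strip were near that last share.

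The share of cells with a Cdkn1a UMI was also higher in basal cells of ESCC mice once cells were thinned to 500 UMIs each, which left 1458 of 1493 control, 74 of 143 EoE and 1472 of 1472 ESCC cells. In basal cells the share was 0 to 7.38% in controls (median 4.35%, 32 of 723 cells) and 10.4% (17F), 14.3% (17M) and 19.2% (8M) in ESCC mice. Every ESCC mouse lay above every control. Above the strip the share was 32.6 to 57.1% in controls and 34.3%, 39.8% and 49.2% in ESCC mice, inside the control range. Of the other members, Trp53inp1 had basal shares of 0 to 1.06% in controls and 2.75 to 7.01% in ESCC, without overlap, while those of Phlda3 (2.08 to 12.7% and 11.7 to 12.9%), Ccng1 (3.17 to 5.61% and 4.67 to 6.12%) and Bax (0.935 to 4.17% and 2.47 to 2.80%) overlapped. Without thinning the basal shares of Cdkn1a were 9.84 to 14.6% in controls and 43.1 to 54.7% in ESCC. There was no cell type known to lack Cdkn1a to serve as background. Of the 32 deposited cells that carried markers of other cell types, counted before the limits on genes and UMIs and pooled over groups and types, 19 (59.4%) held a Cdkn1a UMI at a median depth of 1662 UMIs, unthinned. The part of free RNA in these shares was not tested. Summed suprabasal markers stood lower in basal cells of ESCC mice (13.4 to 35.9 per 10000 UMIs) than in those of controls (45.5 to 114), while Krtdap reached higher (2.73 to 10.8 against 0.356 to 7.54) and superficial markers overlapped (6.33 to 12.97 against 3.03 to 16.1).

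**Figure D5:**
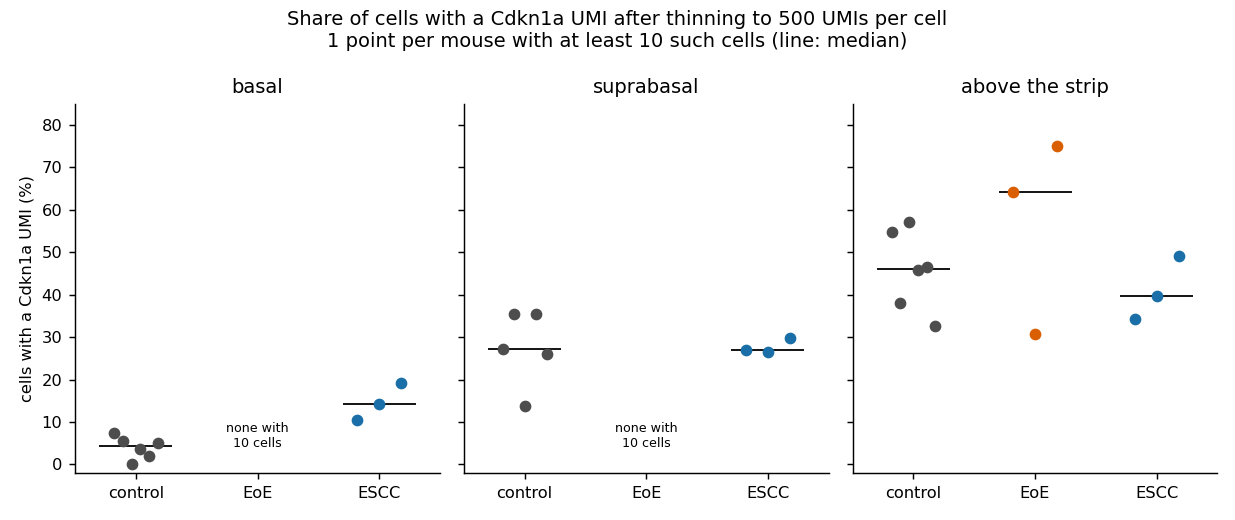
Percentage of cells with at least 1 Cdkn1a UMI after each cell was thinned to 500 UMIs, 1 point per mouse with at least 10 such cells and the group's median as a line, in the 3 classes of cells. In basal cells the ESCC mice (10.4 to 19.2%) lie above all controls (0 to 7.38%), and above the strip the groups overlap.

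In EoE, Cdkn1a was higher than in controls while Trp53 and Ccng1 were lower. Cdkn1a stood at 1999 (mouse 9), 1904 (mouse 10), 1374 (mouse 11) and 1069 (mouse 12) CPM in EoE, above every control. Mice 9 and 10 were the young and mice 11 and 12 the old EoE mice, and both young mice lay above both old ones, a difference that was not tested. Against controls Cdkn1a had a log2 fold change of 1.08 ± 0.23 (edgeR adjusted p = 0.00056), beside a median of -0.75 over all genes tested. The value was 0.54 ± 0.21 with all deposited cells, and still past the threshold (edgeR adjusted p = 0.032). The EoE cells used were mostly of the class in which Cdkn1a is high: 56.1 to 72.7% lay above the strip, against 20.0 to 41.6% of control cells, and 9.09 to 24.6% were basal. The limits on genes and UMIs kept 9.53% of the deposited EoE cells, and 99.5% of control cells were used. In the EoE cells used, median UMIs per mouse were 342 to 373 in basal cells and 557 to 818 above the strip. Whether the limits shifted these shares was not tested. The classes did not hold like cells in EoE and control: EoE cells classed as basal held Krt5 at 6.89 to 29.2 per 10000 UMIs, against 68.4 to 93.6 in controls, and EoE cells above the strip held suprabasal markers at 1278 to 1795, against 748 to 1035. Within cells above the strip, an alternative added after seeing the data, the difference was 0.36 ± 0.25 and did not pass (edgeR adjusted p = 0.275). The levels there were 1294 to 2353 CPM in the 4 EoE mice and 1387 to 1867 CPM in the 6 controls. In suprabasal cells, which were not tested in EoE, they were 1244 to 1575 CPM (20 UMIs) and 404 to 877 CPM, without overlap. These EoE values rest on 2 to 14 cells per mouse. The lowest, that of mouse 11, rests on 2 cells with 804 UMIs in all, of which 1 cell held Cdkn1a. These class levels were scaled to total UMIs in EoE and by TMM in controls.

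Counts of the other members in EoE were small, since 3 UMIs over the group correspond to 29.8 CPM. Trp53 and Ccng1 had no UMI in the EoE cells used and were called lower. Against a floor of 3 UMIs over the group, Trp53 was at least 4.93-fold lower and Ccng1 at least 2.52-fold lower than in controls, in the cells used. With all deposited cells Trp53 had 13 UMIs and Ccng1 7, and the log2 fold changes were -1.49 ± 0.31 and -1.40 ± 0.59 (edgeR adjusted p = 0.00033 and 0.049). For Trp53 this was a smaller difference than the bound in the cells used. The call of Ccng1 was lost without EoE mouse 10, the deepest of the group (edgeR adjusted p = 0.060). Within cells above the strip Trp53 stayed without a UMI, at least 1.70-fold lower than in controls.

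Mdm2 had 1 UMI in EoE, a ratio to controls of 0.185 with a counting interval (95%) of 0.0046 to 1.06, and missed the threshold (edgeR adjusted p = 0.060), which it passed in 5 alternatives, among them all deposited cells (-2.15 ± 0.64, 3 UMIs) and without control mouse 4 (-2.57). Without EoE mouse 10, which held its only UMI, it had none left in EoE. Bax had 3 UMIs, all in mouse 9, a ratio of 0.454 (0.0921 to 1.36), and passed with all deposited cells (-1.46 ± 0.50) or without that mouse. Sesn2 had 1 UMI, a ratio of 0.387 (0.0096 to 2.28), and Aen none, with a control level under the floor. Phlda3 stood at 148 (mouse 10), 211 (mouse 11), 0 (mouse 12) and 161 (mouse 9) CPM, with a log2 fold change of -0.55 ± 0.40 (edgeR adjusted p = 0.296), and it passed only with cells thinned to 500 UMIs (-1.79). Zmat3, the other gene that rose with differentiation, stood at 173 (mouse 10), 161 (mouse 9), 0 and 0 CPM, so that it was seen in the young EoE mice alone. It had a log2 fold change of 1.18 ± 0.55 that missed the threshold (edgeR adjusted p = 0.091) and passed with all deposited cells (1.06 ± 0.37) or without mouse 12 (1.49). Trp53inp1 had 5 UMIs (1.45 ± 0.78). Thus 1 of 9 members tested was higher and 2 lower, beside 34.5% of all genes called, a share near that of the members. The median log2 fold change of the members was -1.14, beside the negative median over all genes given above with Cdkn1a.

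Of 21 other targets tested in EoE, 0 were higher and 7 lower than in controls in edgeR, with a median log2 fold change of -2.06, or -0.55 with the 6 genes that had no EoE UMI put at their floor. Of 12 regulators 2 were lower (median -0.25), and of 22 cell cycle genes 8 were lower (median -1.91, or -1.72 with 3 genes at their floor). Over all genes tested 34.5% were called, a share near those of the other targets and the cell cycle genes. The list medians stand beside the negative median over all genes given above with Cdkn1a. The genes with the largest fitted decreases had no EoE UMI: Cdc20, an activator of the anaphase-promoting complex, was at least 4.60-fold lower, Notch1, a receptor of squamous differentiation, at least 4.14-fold, and Igfbp3, which encodes a binding protein of insulin-like growth factors, at least 3.88-fold.

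Set directly against ESCC, EoE cells had more Cdkn1a (log2 fold change 1.15 ± 0.26, edgeR adjusted p = 0.00090) and less of 4 other members. In the cells used, Trp53 was at least 5.76-fold and Ccng1 at least 5.56-fold lower, Mdm2 had a ratio of 0.160 (0.0040 to 0.901) and Phlda3 was lower by -1.33 ± 0.39 on the log2 scale (edgeR adjusted p = 0.0074). With all deposited cells the pooled levels of Trp53 were 47.9 CPM in EoE and 155 CPM in ESCC, a smaller difference than its bound. Those of Ccng1 were 25.8 and 149 CPM. Within cells above the strip the bounds were 2.42-fold for Trp53 and 3.52-fold for Ccng1. The call of Mdm2 was lost without EoE mouse 9 or 12 and in DESeq2. Bax, with a ratio of 0.309 (0.0635 to 0.910), missed the threshold (edgeR adjusted p = 0.053) and passed in 7 alternatives, among them without EoE mouse 9, ESCC mouse 17F or ESCC mouse 17M. Zmat3 (1.29 ± 0.55, edgeR adjusted p = 0.056) passed in 4, among them DESeq2 and without EoE mouse 11 or 12. Thus 1 of 9 members was higher and 4 were lower, beside 41.6% of all genes called. Within cells above the strip the difference in Cdkn1a was 0.44 ± 0.28 and did not pass (edgeR adjusted p = 0.215), and Trp53 was the only 1 of the 5 members tested there that passed. The call of Phlda3 was also lost there (-1.03). Of the lists, 1 other target was higher (Btg2, 0.97 ± 0.30) and 11 lower of 21 tested, 3 of 12 regulators were lower, and 1 cell cycle gene was higher (Kif23, 1.18 ± 0.42) and 15 were lower of 22. Of the 11 lower targets 6 had no EoE UMI, and the list's median of -2.35 was -1.53 with these at their floor. Among the 6, Ak1, Ptp4a3 and Dcxr had 22, 41 and 40 UMIs in controls and 237, 418 and 314 in ESCC. They could pass the filter through ESCC, the group where they are high, and their calls carry that limit. Igfbp3, Cdc20 and Ptp4a3, without an EoE UMI, were at least 6.44-fold, 3.72-fold and 3.42-fold lower.

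Age was compared within controls. Cdkn1a stood at 619.5 (mouse 2), 781 (mouse 6) and 959.8 (mouse 1) CPM in young mice and at 605 (mouse 3), 813 (mouse 4) and 847 (mouse 5) CPM in old mice, with overlap, a log2 fold change of -0.06 ± 0.25. None of 9 members tested passed in edgeR or in DESeq2, and 0 had an unadjusted p under 0.05. Of all 6488 genes 0 (0%) were called in edgeR, where 293 had an unadjusted p under 0.05, and 1 in DESeq2. The largest differences of members were those of Trp53inp1 (0.94 ± 0.55) and Ccng1 (-0.51 ± 0.36). Of the list genes tested (24 other targets, 14 regulators and 22 cell cycle genes) 0 passed in edgeR, and 2, 1 and 0 had an unadjusted p under 0.05.

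Whether cells with a Cdkn1a UMI also held more of the other members could be read only from sparse counts. At 500 UMIs per cell, 320 control and 294 ESCC cells with a Cdkn1a UMI were compared with cells of the same mouse and class without one. No member passed the filter, and 4.02% of 373 genes were called in controls and 0% in ESCC, where 35 genes had an unadjusted p under 0.05. With every gene of at least 1 UMI tested, 0 of 9 members passed in edgeR in either group, and 1 (Trp53, -0.96 ± 0.45 in controls) had an unadjusted p under 0.05. Pooled over mice and classes, Ccng1 gave 23.1 UMIs per 100000 in ESCC cells with a Cdkn1a UMI and 10.4 in those without, while in controls it gave 5.63 and 6.97. Phlda3 gave 29.3 and 27.7 in ESCC and 21.3 and 18.1 in controls, and Trp53 15.0 and 13.8 in ESCC and 9.38 and 18.3 in controls. These pooled values are descriptions, since cells of a mouse are not replicates and the classes differ in Cdkn1a.

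Across the 27 sums of a mouse and a class in control and ESCC mice, the genes with a pattern most like that of Cdkn1a were Them5 (Pearson r = 0.973 of log2(CPM + 10)), Mt4 (0.960), Dmkn (0.919), Lypd3 (0.919) and 4833423E24Rik (0.918), among 5531 genes with a mean of at least 30 CPM. Mt4 and Dmkn are known genes of differentiating stratified epithelium. Among the members Zmat3 had the highest r (0.591, rank 371), followed by Bax (0.369), Trp53inp1 (0.234), Phlda3 (0.218), Mdm2 (0.072) and Ccng1 (-0.052), and Trp53 had the lowest (-0.512). Within the 18 control sums and the 9 ESCC sums the sign differed for Trp53inp1 (0.186 and -0.603), Phlda3 (0.109 and -0.176) and Mdm2 (0.017 and -0.115). Zmat3, Bax, Ccng1 and Trp53 kept theirs in both groups. Over all genes the median r was -0.013, and 10.3% of genes had an r above 0.5. The sums of a mouse share its libraries, and sums differ in depth, so the values are given without a test.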

How the data were processed

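The authors made UMI counts per gene and cell with UMI-tools 1.0.0, STAR 2.7.3 and featureCounts on GRCm38 and deposited filtered counts for 1500 cells per condition. From these deposited counts, cells with 250 to 3500 genes and 100 to 9500 UMIs were kept, and cells with at least 3 UMIs of markers of other cell types, and more of those than of epithelial markers, were left out. Counts were summed over the libraries of a mouse, which the labels name, and the mouse was the replicate. Where nothing says that mice were raised or processed separately, p-values measure only the spread between these mice.

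The members and gene lists were chosen with earlier results of these data known. The genes named are the 10 members, the 3 list genes past the threshold with the largest fold change in each direction of a comparison, and the 5 genes most like Cdkn1a; further list genes are named with their values already known. The lists held 40 other p53 targets, 18 regulators and relatives and 28 cell cycle genes. Tests were edgeR 4.0.16 (R 4.3.3; quasi-likelihood, TMM, filterByExpr, adjusted p under 0.05), with all groups in 1 fit for the comparisons of conditions. Classes of cells came from Leiden clusters of control cells (scanpy 1.11.5; 2000 variable genes, 50 components, 15 neighbors, resolution 1), with members and lists left out, by the log10 ratio of Krtdap to Krt5 (suprabasal within 0.3 of 0). Every cell took the class of most of its 15 nearest control cells of other mice. In the fits between classes, samples of the same mouse were paired, and mouse was a block. Doublets marked by Scrublet stayed in and were removed in an alternative. Other alternatives were DESeq2 1.42.0, RLE size factors, all deposited cells, thinned cells, other filters and classes, no block and each mouse left out. Leaving out barcodes shared by the libraries of a mouse, and using EoE cells above the strip alone, were chosen after seeing the data.

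Intervals and floors (3 UMIs over the group) cover counting error only and hold only for the cells counted. On simulated counts of 5866 genes with 200 changed, 77% of log2 changes of 1 and 94.5% of changes of 2 were recovered for ESCC against control (18 and 15 false calls), and 2.5% and 52.5% for EoE against control. In the data a larger share of genes was called in these comparisons (34.6% and 34.5%). Recovery at such a share was not tested, so these rates may not carry over.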

Additional observations from a re-analysis of the deposited data

Results flagged for a closer look

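The step of Cdkn1a from basal cells to cells above the strip differed between ESCC and control mice in a test of the difference itself (-1.89 ± 0.21 on the log2 scale, 3 and 6 mice). In 6 of 47 groups of mice 1 value of a member lay far from the others, by a rule that marks about 1 in 20 groups of normally spread values. The rule always marks a group with 1 mouse above 0 and the others at 0. That rate therefore does not apply to such sparse counts, and the 6 groups are a description only. In EoE these were Bax at 96.7 CPM in mouse 9 (3 UMIs), Mdm2 at 24.7 CPM in mouse 10 (1 UMI) and Sesn2 at 50.9 CPM in mouse 12 (1 UMI), with the other 3 mice at 0 each time. In suprabasal cells of controls they were Aen at 50.5 CPM, Sesn2 at 54.5 CPM and Trp53inp1 at 26.5 CPM, each in 1 of 6 mice and each resting on few UMIs.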

How the results depend on the processing

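Of 993 fold changes of members under alternatives, 939 kept their direction and their side of the threshold or were never past it, 25 lost their call, 29 gained one and 0 past the threshold changed sign. For Cdkn1a 141 of 143 were kept. Both exceptions came from using cells above the strip alone, chosen after seeing the data, with 0.36 against control and 0.44 against ESCC in EoE, and with 1 member past the threshold in each comparison. With all deposited cells 6 members passed in EoE against control, where 3 did in the main analysis, and with only the compared mice in the fit 2 passed in EoE against ESCC, where 5 did, since the filter left Cdkn1a and Phlda3 as the 2 members tested. Above the strip, 1 member passed in ESCC against control with cells classed by their own Krt5 and Krtdap UMIs, where 2 did, and in suprabasal cells 2 passed with every gene of at least 1 UMI tested. Leaving out 1 mouse at a time left 2 to 4 members called in basal cells, 0 to 2 above the strip (0 without ESCC mouse 17M) and 2 to 4 in EoE against control and in the ESCC step between classes. Without mouse as a block (no paired fit), the Cdkn1a steps were 3.57 in controls and 1.68 in ESCC, and no call of a member changed. Depth limits EoE most, with 97975 UMIs in all. The causes of these changes were not tested.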
